A study of Drosophila melanogaster with 3 samples.

Results

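The sarcomere and contractile protein genes of Drosophila melanogaster described here are 31 genes, taken as a fixed list by gene name: the muscle actins, myosins and troponins, the tropomyosins and thin filament factors, the thick filament proteins, the giant scaffold proteins, and the Z-disc and LIM domain proteins. They are 31 of the 13945 protein-coding genes annotated on the 6 chromosome arms. Of the names, 30 matched the annotation by symbol, and Unc-89 was matched through its RefSeq synonym to the gene that the annotation calls Obsc.

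Binding of HLH54F, a basic helix-loop-helix (bHLH) transcription factor, was measured by ChIP-seq in 1 group of 3 biological replicates. The group was HLH54F-GFP embryos, male and female pooled and 0 to 24 h old, of a transgenic line stably expressing HLH54F fused at its C terminus to green fluorescent protein (GFP). Chromatin was sonicated to 200 to 800 bp; the sample descriptions name an antibody against GFP, whereas the antibody field names HLH54F. The pool of whole embryos holds all tissues, muscle among them, and every embryonic age. No value below can therefore be given to 1 tissue or stage, and no second condition was compared.

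The sarcomere is the repeating unit of striated muscle, in which thick filaments of myosin slide along thin filaments of actin. Troponin and tropomyosin on the thin filament make that sliding depend on calcium; the Z-disc anchors the thin filaments, and giant proteins of the titin and obscurin type span and align the unit. HLH54F is known as a factor of the caudal visceral mesoderm, which gives rise to the longitudinal muscles of the fly gut. Proteins of the bHLH family bind the E-box, whose letters are CANNTG, and MEF2, a MADS-box factor of muscle differentiation, has a site rich in A and T.

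Peaks were used as the authors called them, in the dm6 build. The optimal list, which the authors derived from the replicates and the pooled data with the irreproducible discovery rate procedure, held 4246 peaks with signal values from 92.7 to 3344 (median 154). The relaxed pooled list held 23689 peaks down to a signal of 27.9 (median 42.4) and contains every optimal peak. The 3 replicates had relaxed lists of 30000, 30000 and 24914 peaks; the 4246 of highest signal in each are called its top peaks. Read depth and signal scaling were not given in the sources used here, so signals are ranked only within a list, and a replicate rank is that of the replicate peak holding the pooled summit. The optimal peaks come from these replicates and all lists share 1 control, so the replicate ranks describe spread and are no independent check.

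The sequence at the summits came from the release 6 genome. Shown here are the 201 bases centred on the strongest optimal summit of Msp300, sls and tmod, which are members whose peak was a top peak in every replicate. Beside them stand the 201 bases at the strongest promoter summit of the pooled list for wupA and Mlc1, a troponin and a myosin light chain gene without an optimal peak. All are given 5′ to 3′ on the + strand of dm6, in lower case, with matches to CANNTG and to the MEF2 site in capitals.
Msp300 chr2L:5108068-5108268: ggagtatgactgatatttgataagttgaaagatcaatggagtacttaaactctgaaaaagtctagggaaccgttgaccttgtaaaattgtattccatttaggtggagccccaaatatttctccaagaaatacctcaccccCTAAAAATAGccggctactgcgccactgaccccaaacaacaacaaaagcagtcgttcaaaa
sls chr3L:2115761-2115961: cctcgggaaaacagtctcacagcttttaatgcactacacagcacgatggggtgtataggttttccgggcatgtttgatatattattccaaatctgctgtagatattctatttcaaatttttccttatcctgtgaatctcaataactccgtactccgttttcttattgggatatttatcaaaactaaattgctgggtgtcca
tmod chr3R:30540292-30540492: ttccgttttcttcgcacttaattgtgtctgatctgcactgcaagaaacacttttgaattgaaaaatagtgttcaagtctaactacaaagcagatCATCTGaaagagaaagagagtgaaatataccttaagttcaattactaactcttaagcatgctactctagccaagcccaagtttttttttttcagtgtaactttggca
wupA chrX:18114819-18115019: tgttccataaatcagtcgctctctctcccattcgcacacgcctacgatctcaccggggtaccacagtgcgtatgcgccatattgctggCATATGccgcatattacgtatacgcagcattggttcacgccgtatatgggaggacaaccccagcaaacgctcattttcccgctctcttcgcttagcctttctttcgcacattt
Mlc1 chr3R:27660252-27660452: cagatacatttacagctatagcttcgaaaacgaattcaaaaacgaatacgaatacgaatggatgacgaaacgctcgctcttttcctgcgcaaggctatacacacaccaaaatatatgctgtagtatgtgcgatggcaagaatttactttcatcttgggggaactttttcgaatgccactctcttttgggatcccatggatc

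The Msp300 sequence held no CANNTG and 1 match to the MEF2 site, CTAAAAATAG, which begins 40 bp to the right of the summit. The sls sequence held neither. The tmod sequence held CATCTG, which begins 6 bp to the left of the summit. At wupA the word CATATG began 12 bp to the left of the summit, and the Mlc1 sequence held no match to either pattern. A match is a string of letters and was not tested for binding.

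Of the 31 contractile genes, 8 (25.8%) had an optimal summit in the gene or the 2 kb upstream, against 30.6% of all protein-coding genes. Within 500 bp of one of their own transcription start sites (TSS), 5 genes had one, against a background of 22.6%. In 5 genes an optimal summit in the window also lay in a top peak of every replicate, against 22.9%. These 5 were Msp300, sls, tmod, Actn and TpnC47D; the 5 with an optimal summit near a start were Msp300, sls, tmod, Actn and Tm1. By the nearest protein-coding TSS, 9 contractile genes (29.0%) owned an optimal summit, against 22.2%. No test was made of these differences, and a list of 31 genes resolves only coarse ones. In the relaxed pooled list, 27 contractile genes (87.1%) had a summit in the window, against 67.3%, and 17 (54.8%) had one near an own start, against 50.4%.

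Window length moved with these counts. The median window was 7.0 kb for the contractile genes and 4.2 kb for all protein-coding genes. Of the 22 contractile genes with windows up to 20 kb, 1 had an optimal summit, and of the 9 with longer windows 7 did. In windows up to 5 kb the count was 1 of 8 contractile genes (TpnC47D), against 22.4% of all genes. In windows of 5 to 10 kb it was 0 of 8, against 39.8%, and in windows of 10 to 20 kb 0 of 6, against 46.2%. In windows of 20 to 50 kb it was 4 of 5 (Tm1, tmod, Actn, Unc-89), against 51.9%, and over 50 kb it was 3 of 4 (Msp300, sls, Zasp52), against 53.9%. Apart from that of TpnC47D, the optimal summits were thus found in long genes of the list. Length and gene role cannot be told apart in so few genes.

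**Figure D1:**
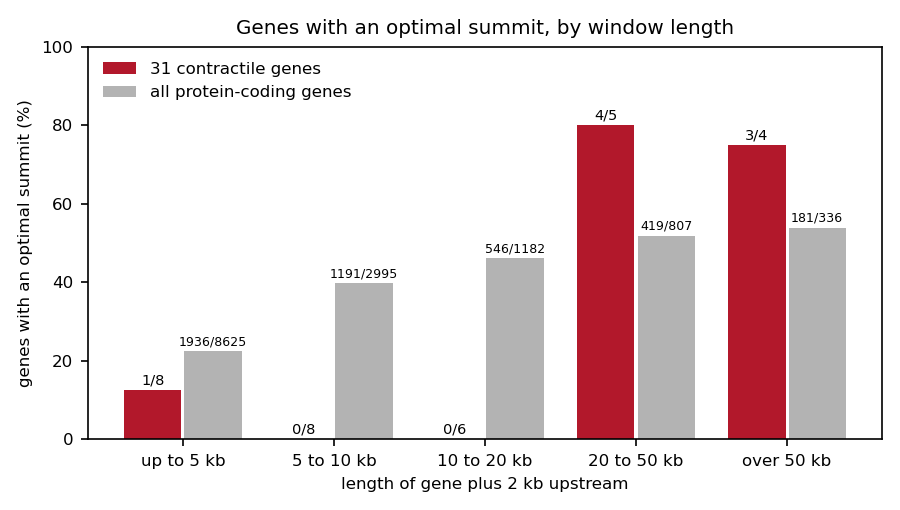
Share of genes (%) with an optimal summit in the gene or 2 kb upstream, by the length of that window, for the 31 contractile genes (red) and all protein-coding genes (grey). Numbers over the bars are genes with a summit over genes in the class; 0 of 14 contractile genes between 5 and 20 kb had one, against 39.8% and 46.2% of all genes in those classes.

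The 16 optimal summits in the windows of contractile genes had signals from 93.4 to 819 with a median of 104, against a median of 154 over all optimal summits. Of these, 5 (31.2%) lay in a top peak of every replicate, against 66.2% of all optimal summits; in the whole replicate lists the shares were 87.5% and 96.6%. Replicate summits lay a median of 21 bp from the pooled summit at the contractile genes and 17 bp over all optimal peaks. Placed on the gene that held them, 10 summits were intronic, 5 upstream and 1 in a coding exon. The same split is not given here for all optimal summits, so it cannot be read as particular to these genes. Of the 16, 7 (43.8%) were within 500 bp of any annotated TSS, against 60.9% of all optimal summits.

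**Figure D2:**
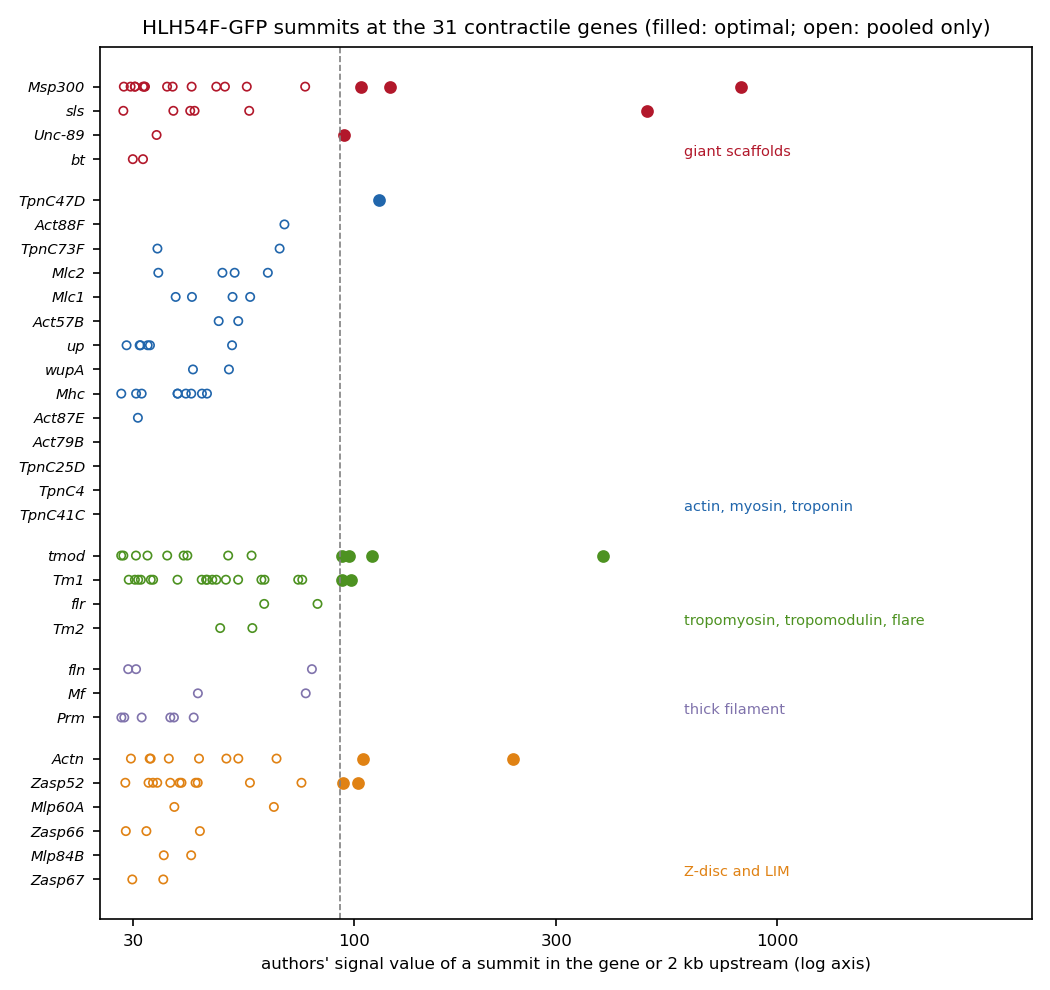
Signal value (log axis) of every summit in the gene or 2 kb upstream of the 31 contractile genes, grouped by role; filled points are optimal summits, open points are in the pooled list only, and the dashed line is the lowest optimal signal, 92.7. Msp300 (819), sls (492), tmod (386) and Actn (237) stand to the right, while the actin, myosin and troponin genes lie at or below 114.

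Among the giant scaffold genes, Msp300 encodes a giant nesprin that ties muscle nuclei to the cytoskeleton and carried the strongest summit of the list. Its peak on 2L (5108029 to 5108334, dm6) had a signal of 819 and rank 83 of the pooled list. It ranked 83, 112 and 68 in replicates 1, 2 and 3 (87.7 ± 22.4, SD, n = 3), and the replicate summits lay 7, 12 and 0 bp from the pooled one. All 3 replicates thus placed this site at the same position and near the top of their lists. The summit was 344 bp upstream of an internal start used by 2 of the 11 annotated transcripts, inside an intron of the longer ones. A pair of overlapping peaks further along the gene, 784 and 578 bp upstream of another start, had signals of 121 and 103. Both fell into the same peak of replicate 1 (rank 2630) and of replicate 2 (rank 2049); in replicate 3 the stronger had no peak and the weaker ranked 7898. The pair therefore matched a single peak in replicates 1 and 2.

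sls encodes Sallimus, the titin-like protein that joins the Z-disc to the thick filament. Its peak on 3L (2115744 to 2116018) had a signal of 492 and rank 240 of the pooled list, with replicate ranks of 219, 289 and 262 (257 ± 35.3, SD, n = 3). The summit lay 250 bp upstream of the single start shared by all 13 transcripts, and the replicate summits were within 22 bp of the pooled one. The start is at base 2115611, so the peak lay upstream of it and did not cover it. No other optimal summit lay in the 77.9 kb window of sls. The next pooled summit of sls, 25630 bp into the gene, had a signal of 56.4.

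Unc-89, the fly obscurin that organises the M-line, had 1 optimal summit near the lower limit, with a signal of 94.4. It lay in a coding exon, 14719 bp from the nearest of the gene's own starts and 2248 bp from the start of CG3860 (2R). The summit ranked 10049 in replicate 1 and 1920 in replicate 3, with no peak in replicate 2. The replicates therefore differed at this site. bt encodes projectin, a titin-like kinase, and lies on chromosome 4. It had no optimal summit, and its pair of pooled summits, of 31.6 and 29.9, were each in the list of 1 replicate. In its 54.1 kb window this was 0.37 pooled summits per 10 kb, below the value of every other contractile gene that had a pooled summit.

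**Figure D3:**
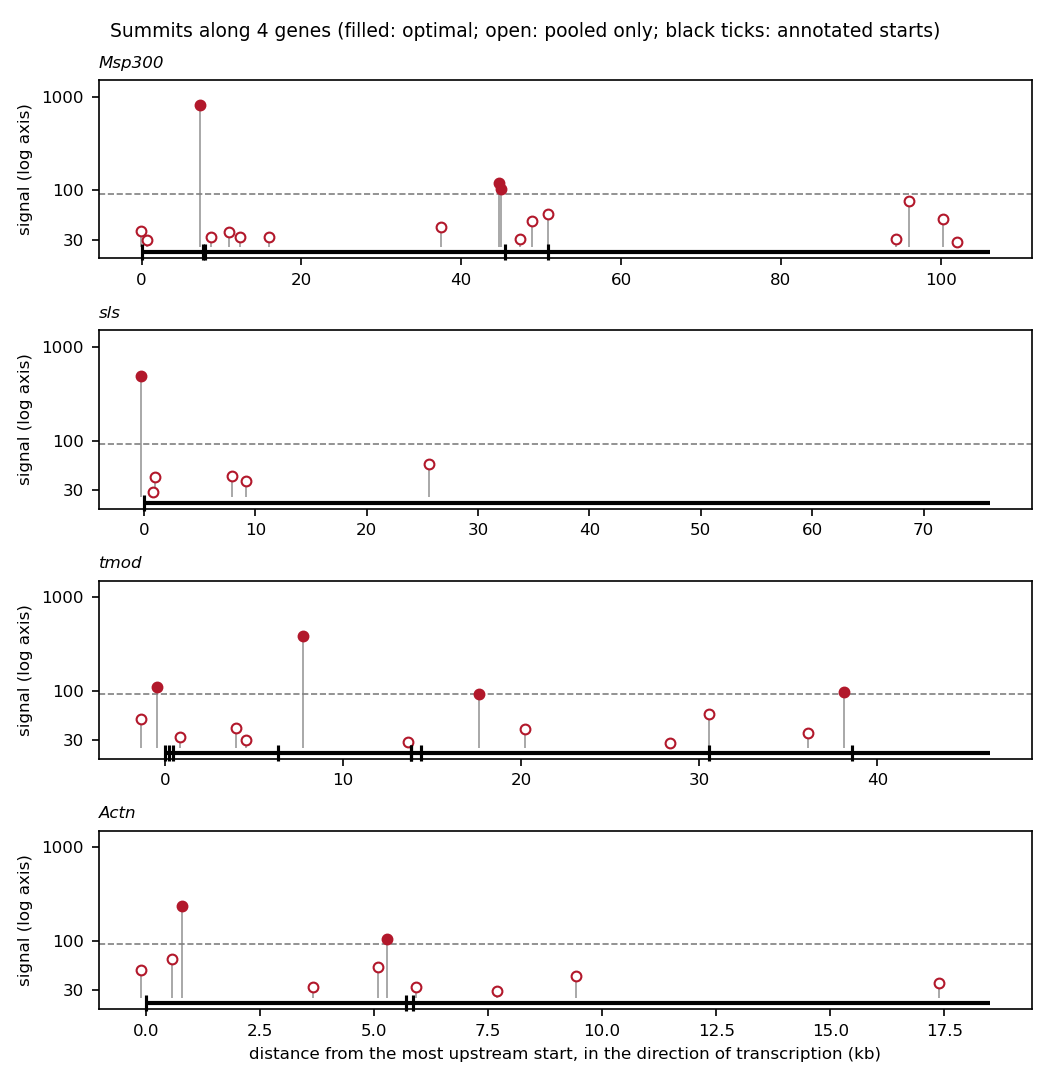
Summits along Msp300, sls, tmod and Actn, with distance from the most upstream start in the direction of transcription (kb) on the horizontal axis and signal (log) on the vertical axis; filled points are optimal, open points pooled only, black ticks annotated starts, and the dashed line is the lowest optimal signal. The strongest summit of sls (492) lies 250 bp upstream of its only start, and that of Msp300 (819) near an internal start. tmod has 4 optimal summits spread over the gene.

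The actin, myosin and troponin genes build the filaments themselves and are short, with a median window of 4.8 kb against 66.0 kb for the giant scaffold genes. Of the 4 giant scaffold genes 3 had an optimal summit and of these 14 only TpnC47D had one, against 30.6% of all protein-coding genes (22.4% with windows up to 5 kb and 53.9% over 50 kb). TpnC47D encodes a calcium-binding troponin C. Its peak on 2R (11275768 to 11276187) lay 692 bp upstream of the start of both transcripts, with a signal of 114 and replicate ranks of 3998, 3329 and 3243 (3520 ± 413, SD, n = 3). All of these ranks were inside the top peaks, in their lower part. Within 500 bp of an own start, 2 of the 4 giant scaffold genes and none of the 14 had an optimal summit, against 22.6% of all protein-coding genes.

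Per length of window, the giant scaffold genes had 1.92 optimal summits per 100 kb (5 in 260.8 kb) and the actin, myosin and troponin genes 0.986 (1 in 101.4 kb). All protein-coding genes together had 4.89, with overlapping windows counted more than once. In the pooled list the order was the other way, with 10.4 per 100 kb in the giant scaffold genes and 31.6 in the actin, myosin and troponin genes, against 22.5 over all genes. With 5 summits against 1, the direction rests on single peaks. Leaving out both summits of the overlapping Msp300 pair gave 1.15, and a rate with the pair counted once is not given here. The median distance from an own start to the nearest optimal summit was 7.45 kb for the giant scaffold genes, 19.09 kb for the actin, myosin and troponin genes and 6.46 kb over all protein-coding genes.

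The 4 muscle actin genes differ in where their products are used: Act57B and Act87E mainly in larval and body wall muscle, Act79B in adult leg and other tubular muscle and Act88F in the indirect flight muscle. None of the 4 had an optimal summit in its window, against 22.4% of all protein-coding genes with windows up to 5 kb. Act88F had 1 pooled summit of 68.3, 1789 bp upstream, which ranked 7035 in replicate 1 and 3035 in replicate 3 and was without a peak in replicate 2. Act57B had a pair of pooled summits in its coding exon, the stronger of 53.1. Act87E had 1 of 30.8 at 416 bp upstream, found in replicate 2 only, and Act79B had none. An optimal peak did lie just beyond the Act87E window on 3R (13428278 to 13428697), with its summit 113 bp past the annotated gene end and 2041 bp from its start. Its signal was 168, and it ranked 2146, 2593 and 1696 (2140 ± 449, SD, n = 3), and Act87E has the nearest annotated start. Act87E is thus counted without an optimal summit by the window and with one by the nearest start.

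Among the motor genes, Mhc, the single muscle myosin heavy chain gene of the fly, had 9 pooled summits in 24.2 kb and none above a signal of 44.8. That summit lay in a coding exon 8785 bp from a start and ranked 17870, 24089 and 6937 in the replicates. At its promoter the strongest summit was 30.5, in the list of replicate 2 only. Mlc2, the regulatory light chain gene, had its strongest summit, of 62.4, in the 3′ UTR, 492 bp upstream of the neighbour Rsod, and a promoter summit of 52.1 that ranked 12089, 7336 and 8475. Mlc1, which encodes the alkali light chain, had its strongest summit (56.7) 305 bp upstream of unc80 and 1957 bp from its own start. Its promoter summit, whose sequence is shown above, had a signal of 37.8 and ranked 22326, 16630 and 17252. None of these summits was a top peak in any replicate.

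Among the troponin genes, up, which encodes troponin T, had a strongest summit of 51.4, in a 5′ UTR 2883 bp past the nearest start, and ranks of 7971, 15283 and 13246. wupA, the troponin I gene, had 50.5 at 928 bp past a start, absent from replicate 3, and the promoter summit shown above (41.5, ranks 14794, 17407 and 16762). Of the 5 troponin C genes, 2 (TpnC47D and TpnC73F) had any pooled summit in the window, against 67.3% of all protein-coding genes. The stronger TpnC73F summit (66.6) lay 1104 bp upstream of TpnC73F and 15 bp inside the neighbour Pop5, so it is nearest to the start of Pop5. TpnC4, TpnC41C and TpnC25D had none. The replicate lists held 0, 0 and 0 peaks there for TpnC4, 0, 0 and 1 for TpnC41C, and 4, 2 and 1 for TpnC25D, the best of them at rank 12952. An optimal summit of 94.4 lay 6767 bp past the end of TpnC25D, with ranks of 4223, 7531 and 2935, and TpnC25D has the nearest start to it.

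The thin filament is stabilised by tropomyosin, capped at its pointed end by tropomodulin and turned over with the help of Flare, an actin-interacting protein. tmod, the tropomodulin gene, had 4 optimal summits in 48.3 kb, more than any other contractile gene. The strongest, on 3R (30540287 to 30540529), had a signal of 386 and replicate ranks of 297, 471 and 539 (436 ± 125, SD, n = 3). It lay in an intron, 1433 bp past an internal start. All 3 replicates held it among their top peaks. The others had signals of 110 at 408 bp upstream of the first start, 97.1 at 447 bp upstream of the most downstream start and 93.4 in an intron, and none of them was a top peak in all replicates. At the first start, the nearest annotated TSS was that of the non-coding lncRNA:CR45552, 338 bp from the summit.

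Tm1 and Tm2 are neighbouring tropomyosin genes on 3R. Tm1 had 20 pooled summits in 32.6 kb, of which 7 lay within 500 bp of one of its 8 starts, and 2 optimal ones just above the lower limit. The first, of 98.0, was in an intron and ranked 2151, 2751 and 4730. The second, of 93.7, lay 66 bp upstream of Tm1 and 45 bp upstream of MRG15, inside l(3)neo43, so 3 genes meet at this peak. It ranked 3555, 5844 and 5646. Tm2 had no optimal summit; its strongest was 57.4 in a 5′ UTR 274 bp past a start (ranks 8081, 16378 and 5254). flr, the Flare gene, had summits of 81.8 inside its neighbour CG10222 and 61.2 at 115 bp upstream of its own start.

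Of the 3 genes of thick filament proteins other than myosin, none had an optimal summit in the window, against 30.6% of all protein-coding genes. fln, which encodes the flight muscle protein flightin, had a pooled summit of 79.4, which ranked 16217, 3446 and 3946. This was a top peak in replicates 2 and 3, but the summit lay 52 bp upstream of CG7646 and 615 bp upstream of fln. Mf, the myofilin gene, had its strongest summit, of 76.7, in a coding exon 887 bp past a start (ranks 5349, 5528 and 8181), and Prm, the paramyosin gene, one of 41.7 in an intron, absent from replicate 3.

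At the Z-disc, α-actinin crosslinks the thin filaments, and the Zasp proteins bind α-actinin and organise the disc. Actn, the α-actinin gene on X, had a peak (2041310 to 2041729) whose signal was 237 and whose replicate ranks were 883, 1801 and 940 (1210 ± 514, SD, n = 3). The summit lay 791 bp past the most upstream Actn start, but 208 bp upstream of a start of usp, the gene of the nuclear receptor Ultraspiracle. It also lay inside usp, so this peak may be counted with either gene. A second Actn summit, of 105, was 401 bp upstream of a start used by 1 of 9 transcripts and ranked 2704, 5865 and 7119. Thus, of the optimal Actn summits, the one nearer to an own start was the weaker and less replicated.

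Zasp52 on 2R had optimal summits of 102 and 94.2. The stronger was 1693 bp upstream, inside tun, and ranked 5688, 5261 and 2366; the weaker was in an intron 8931 bp from the nearest start and ranked 3950, 12122 and 2939. Neither was a top peak in all replicates. Zasp66 had 43.1 at a summit 11 bp past the start of Cdc6, and Zasp67 had 35.3 in a coding exon. Mlp60A and Mlp84B encode muscle LIM proteins, and their strongest summits were 64.5 in an intron and 41.1 in a coding exon. The Mlp60A summit was absent from replicate 1 and ranked 9551 and 4042 in replicates 2 and 3.

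Over the 23 contractile genes without an optimal summit, 4 had no pooled summit either and 19 had one, with strongest signals from 30.8 to 81.8 and a median of 53.1. The value next above the lower limit of the optimal list was 93.4 (tmod), and the next below it was 81.8 (flr). Of the 19 strongest summits, 7 were held by the whole lists of 3 replicates, another 10 by those of 2 replicates and 2 by that of 1. Of all pooled summits, 37.4% were held by the lists of all 3 replicates. That share includes the optimal summits, of which 96.6% were so held. The 19 are each the strongest of a gene and none is optimal, so the sets are not alike. In no replicate's top peaks were 16 of the 19, a count tied to the choice of genes without an optimal summit. The strongest summits of Tm2 and Act87E (2 of 19) lay within 500 bp of an own start, and 6 of the 19 were nearest to another gene's start. Of all pooled summits, 35.4% lay within 500 bp of any annotated TSS, a wider measure than an own start. Like shares for the strongest summits of all genes are not given here, so neither count can be read as particular to these genes.

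**Figure D4:**
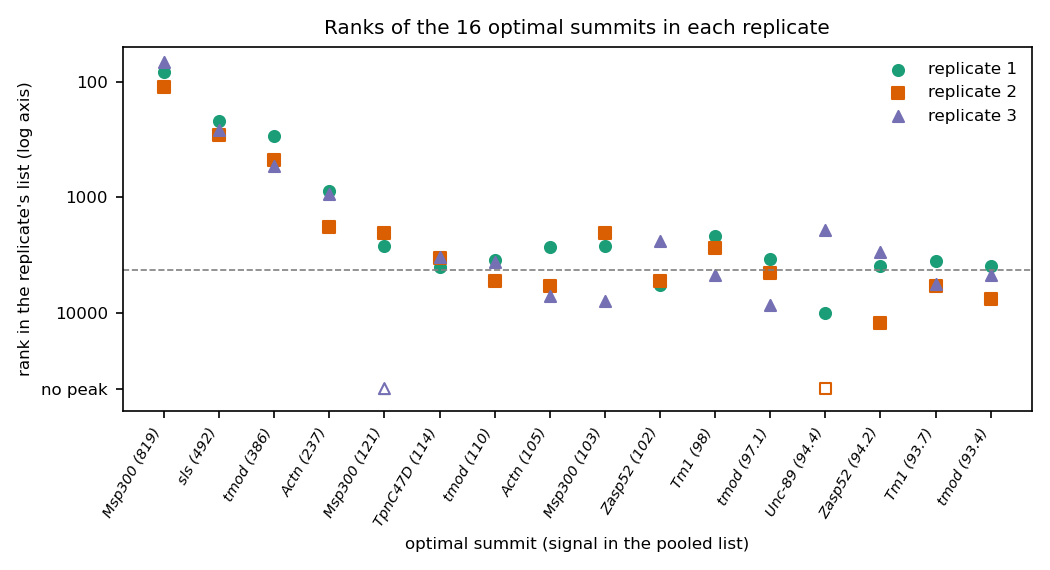
Rank (log axis, rank 1 at the top) of each of the 16 optimal summits of the contractile genes in the lists of replicates 1, 2 and 3, ordered by pooled signal; open symbols mark no peak and the dashed line is rank 4246. The 4 strongest summits lie above the line in all replicates, and below a signal of 237 only TpnC47D does.

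Each replicate was also read alone, through the summits of its own top peaks. Replicates 1, 2 and 3 had 7, 7 and 10 contractile genes with such a summit in the window (8.0 ± 1.73, SD, n = 3), against 30.5%, 29.4% and 30.7% of all protein-coding genes. Near an own start the counts were 5, 2 and 3 (3.33 ± 1.53), against 22.1 ± 0.252% of all genes. Tm1 was held by replicates 1 and 2, Zasp52 by replicates 1 and 3, and fln by replicates 2 and 3. Act88F, Mlp60A and Unc-89 were held by replicate 3 only. Msp300, sls, tmod, Actn and TpnC47D were held by every replicate.

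The sequence within 100 bp of each optimal summit was searched on both strands for 7 patterns. CANNTG was found at 9 of the 16 summits of contractile genes, against 62.1% of all optimal summits, CAGCTG at 1, against 11.2%, and CATATG at 2, against 7.37%; the last 2 words are themselves CANNTG. The MEF2 site was found at 1, against 10.4%, and GAGAG at 3, against 21.5%. TATCGATA and GGTCACACT were found at none, against 5.79% and 2.8%. The median GC content was 37.0% at the summits of contractile genes and 36.8% over all optimal summits. A match is a description of the letters, and with 16 summits no difference in these shares can be resolved.

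Of 12 other genes of muscle contraction, listed by textbook function, 3 had an optimal summit in the window, against 30.6% of all protein-coding genes. All 12 had a pooled one, against 67.3%. Fhos, a formin that builds thin filaments, had a summit of 807 on 3L, 276 bp upstream of a start, with ranks of 99, 95 and 66, close to those of the strongest Msp300 summit. SERCA, the calcium pump of the sarcoplasmic reticulum, had 182 at 543 bp upstream, with ranks of 1547, 4405 and 1047. Strn-Mlck, a myosin light chain kinase gene, had 179, but 96 bp upstream of its neighbour CG8314. Of the 5 non-muscle actin and myosin genes, 3 had an optimal summit, against the same 30.6% of all genes. Act5C, a cytoplasmic actin gene, had 384 at 618 bp upstream (ranks 489, 253 and 613). The nearest annotated start to that summit was that of the non-coding lncRNA:CR45668, 254 bp away. Act5C also had weaker summits of 141 and 98.9. sqh, the non-muscle regulatory light chain gene, had 170 at 70 bp past an internal start used by 1 of its 5 transcripts. Act42A had 193, which lay 74 bp upstream of Pngl. The 4 muscle actin genes had 0 optimal summits in 17.0 kb and these 5 genes 5 in 43.2 kb, counts too small for a rate.

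Near-identical sequence can lower the reads that map to a gene. Of all 31-base words in each window, the share found once in the genome was at least 95% in 29 of the 31 contractile genes and had a median of 99.9%. The exceptions were sls (86.3%) and Msp300 (90.2%). Within the gene alone the muscle actins were also lower, at 91.4% for Act87E, 94.4% for Act88F, 94.9% for Act57B and 95.7% for Act79B. No source used here says how the authors treated reads that map to several places, and the part of unequal mapping in the counts was not tested.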

How the data were processed

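Peak lists from 3 biological replicates of HLH54F-GFP embryos were used as deposited. The authors called each replicate's peaks from that replicate's alignment and the pooled peaks from all 3 alignments, each time with 1 control file, per the text records that came with the samples; they derived the optimal list from these. Steps not given in the sources used here include the aligner, the caller, their versions and settings. The signal of a peak is the authors' deposited value (column 7), and its summit is their offset from the peak's start (column 10). Read depth is unknown. The dm3 lists were not used here.

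The annotation was BDGP6.54 of Ensembl release 115, and bases were read from the release 6 genome, whose coordinates are those of dm6. A window was the gene plus 2 kb upstream, and near a start meant within 500 bp. Positions were computed with Python 3.11.15, pandas 2.3.3, numpy 2.4.6 and matplotlib 3.10.9, and the assignment was tested on simulated peaks. With 1 group no test was made: counts are set beside the same counts over all protein-coding genes. The replicates give a mean and SD of ranks. The members, lists and classes of length were chosen with earlier results of these data known. All 31 genes are named, by their optimal summits or, with none, by their strongest pooled summit, and neighbours are genes of the nearest protein-coding start. Alternatives were other windows, distances, peak lists and leaving out each replicate.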

Additional observations from a re-analysis of the deposited data

How the results depend on the processing

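Of 43 alternative values of 7 counts and rates, 24 were within 1.5 times the reported value and 19 moved by more. The stronger 50% of the optimal list gave 4 genes in the window (8 as reported), 2 near a start (5), 4 by nearest start (9), 4 summits (16), and 0.767 and 0 summits per 100 kb in the giant scaffold and filament genes (1.92 and 0.986). The pooled list gave 27, 17, 27 and 139 for the same counts and 10.4 and 31.6 per 100 kb, which turned the order of the 2 gene groups. The gene body alone gave 3 genes with a summit in every replicate's top peaks (5) and 0 per 100 kb in the filament genes, since the TpnC47D summit is upstream. A distance of 250 bp left 2 genes near a start. The top peaks of replicate 2 gave 2 genes near a start and 9 summits, and those of replicate 3 gave 3 genes near a start. Without the overlapping Msp300 pair, an alternative chosen after seeing the data, the giant scaffold rate was 1.15. Leaving out each replicate gave 5 to 6 genes with a replicated summit (5). The causes were not tested. Counts of 8 or fewer genes and summits close to the lower signal limit set the precision here, and read depth is unknown. No paired analysis was possible because there is 1 group.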

Other observations

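Of the 139 pooled summits in the windows of the contractile genes, the 16 optimal ones included, 69 were intronic, 30 in coding exons, 23 upstream, 10 in a 5′ UTR and 7 in a 3′ UTR. Of these, 107 were nearest to the start of the gene that held them and 32 to that of another gene. Neither split is given here for all pooled summits, so neither can be read as particular to these genes. CAGCTG was found within 100 bp of 23 of the 139 summits (16.5%), against 10.5% of the pooled summits outside the optimal list. That comparison set holds no optimal summit, whereas the 139 hold 16, so the sets are not quite alike for any pattern. GAGAG was found at 28.1%, against 23.8%. CANNTG in general, at 64.0% against 65.9%, and the MEF2 site, at 6.47% against 6.6%, were close to that background. Lower shares were those of CATATG (4.32%, against 6.46%), TATCGATA (1 summit or 0.719%, against 2.04%) and GGTCACACT (none, against 1.23%). The median GC content of the 139 summits was 42.8%, against 40.8% over all pooled summits. Of the 139, 41 (29.5%) lay in the whole lists of all 3 replicates, against 37.4% of all pooled summits. Optimal summits, 16 of the 139 and 4246 of all 23689, were mostly in all lists (87.5% and 96.6%). The sets differ in their part of optimal summits, so these shares are not like for like. These shares are descriptions without a test, since summits of 1 gene are not independent.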
